A study of Mus musculus with 6 samples.

Results

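The adipocyte differentiation genes examined were Pparg, Cebpa, Cebpb, Lpl, Cd36, Fabp4, Plin1, Cidec, Adipoq and Cfd, which are 10 of the 54532 genes in the tables. They were matched by gene name in the annotation and joined by gene identifier to the count and FPKM values. The cells were primary wild-type mouse bone marrow mesenchymal stem cells (mBMSCs), kept for 7 days in osteogenic medium. The additions that made the medium osteogenic were β-glycerophosphate at 10 mM, ascorbic acid at 50 μg/mL and dexamethasone at 100 nM, as the labels give them, while the methods of the study give a lower amount of dexamethasone. The control group (n = 3) received vehicle and the Ni group (n = 3) received 0.1 μM nickel ions, and every culture of both groups received the same osteogenic medium. RNA was read as mRNA-seq in 6 libraries of 16101033 to 18642504 counts. The comparison asked whether low-dose nickel during osteogenic differentiation went with a shift in the genes of the fat cell, the other main fate of the marrow stromal cell.

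Adipocytes and osteoblasts share a stromal precursor in bone marrow. The C/EBP factors act early and, together with PPARγ, switch on the genes for taking up, carrying and storing fat. PPARγ binds DNA as a pair with a retinoid X receptor, on a direct repeat of a short sequence with 1 base between the copies. Dexamethasone is also a usual part of media that induce adipocytes. Several members are not restricted to fat cells: macrophages make CD36, lipoprotein lipase, FABP4, PPARγ and the C/EBP factors. In RNA from whole cultures, a change in the number of cells of a type and a change in RNA per cell cannot be told apart.

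The members covered a wide range of levels (n = 6 libraries for each range). Per length, Lpl, Cebpb, Cebpa and Cd36 were highest, Fabp4, Adipoq and Pparg were intermediate, and Cfd, Plin1 and Cidec were close to the limit of detection. Cidec and Cfd, with 1 to 13 and 3 to 35 counts per library, did not pass the filter on low counts, so 8 of the 10 members were tested beside 14624 genes in all. No member passed an adjusted p of 0.05 in the test of Ni against control. Lpl and Cd36 were lower in Ni and Fabp4 was higher, with log2 fold changes of -0.49, -0.54 and 0.43. The adjusted p of each depended on 1 control library and on the filter on low counts.

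Of the promoters, 4 windows are shown because they belong to the regulator of the program and to members with a difference or a restricted pattern described below, and where a gene had several windows the one shown for Pparg and Cidec is one that held a C/EBP core. Of the 10 members, 8 had an entry among RefSeq's mouse promoters (GRCm38.p6, the build of the deposited files), and Fabp4 and Lpl had none. Each line gives the 250 bases before a transcription start, 5′ to 3′ on the strand of the gene. Capitals mark every match, on either strand, to the C/EBP core TTGCNNAA, the GC box GGGCGG, the TATA box TATAAA, the CCAAT box, or a direct repeat 1 element, searched as a pair of AGGTCA copies 1 base apart with at most 2 mismatches. Adjacent matches run together.
Pparg, chr6:115421816-115422065, plus strand, intronic to the longer transcripts: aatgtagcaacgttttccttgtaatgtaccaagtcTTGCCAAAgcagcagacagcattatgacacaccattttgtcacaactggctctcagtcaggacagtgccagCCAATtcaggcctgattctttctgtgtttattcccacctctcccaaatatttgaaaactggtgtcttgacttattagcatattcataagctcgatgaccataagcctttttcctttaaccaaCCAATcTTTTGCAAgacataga
Cd36, chr5:17835897-17836146, minus strand, intronic to the longer transcripts: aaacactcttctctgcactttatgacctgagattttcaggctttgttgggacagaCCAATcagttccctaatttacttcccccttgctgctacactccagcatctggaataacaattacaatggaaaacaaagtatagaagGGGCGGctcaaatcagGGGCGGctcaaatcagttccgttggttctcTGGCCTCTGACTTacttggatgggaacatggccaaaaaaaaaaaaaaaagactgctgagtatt
Cidec, chr6:113434765-113435014, minus strand, intronic to the longer transcripts: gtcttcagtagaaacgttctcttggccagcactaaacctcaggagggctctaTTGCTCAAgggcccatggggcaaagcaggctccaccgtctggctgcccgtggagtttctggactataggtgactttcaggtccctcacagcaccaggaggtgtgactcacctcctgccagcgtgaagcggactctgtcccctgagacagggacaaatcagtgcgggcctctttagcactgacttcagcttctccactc
Adipoq, chr16:23146286-23146535, plus strand, directly upstream of the gene: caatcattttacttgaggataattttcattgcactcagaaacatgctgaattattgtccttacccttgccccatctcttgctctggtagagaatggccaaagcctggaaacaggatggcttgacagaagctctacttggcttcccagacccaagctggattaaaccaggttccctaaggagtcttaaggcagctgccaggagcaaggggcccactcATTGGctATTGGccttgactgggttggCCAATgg

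The Pparg window held C/EBP cores at 215 to 208 and at 16 to 9 bases before the start, each time counted back from the start, and 2 CCAAT boxes. The Cidec window held 1 C/EBP core at 198 to 191 bases before the start. In Cd36, a direct repeat 1 match with 2 mismatches lay at 63 to 51 bases before the start, with 2 GC boxes and 1 CCAAT box further upstream. Adipoq had 3 CCAAT boxes within 34 bases of its start. Of the windows not printed, the other 2 of Pparg and the other 1 of Cidec, which lies directly upstream of that gene, held no C/EBP core, and the Plin1 window held 2. Cebpb had 5 GC boxes in a window of 81.6% G and C (median of all windows 52.4%), Cebpa had a TATA box at 30 to 25 bases, and Cfd had none of these motifs. Over 32851 windows of this length, 9.56% held the C/EBP core, 32.7% the GC box, 12.4% the TATA box, 33.8% the CCAAT box and 3.24% the direct repeat 1 element. A match describes the letters of the window and no binding was measured.

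The level of each gene per length depended on the gene model. FPKM, the count scaled to exon length and library depth, had been computed on the union of all annotated exons. For Fabp4 this union was 4489 bases, 5.01 times the 896 bases of its principal transcript in GENCODE M21, and for Lpl it was 10478 bases, 2.55 times the principal 4115. The mean FPKM over 6 libraries was 7.64 for Fabp4 as deposited and 38.3 when rescaled to the principal transcript, and for Lpl it was 53.6 and 136. These rescaled values take every count as coming from the principal transcript, which was not measured.

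On the rescaled scale the order was Lpl at 136 (lowest to highest library 91.4 to 192), Cebpb at 116 (93.2 to 136), Cebpa at 115 (107 to 130) and Cd36 at 104 (63.1 to 152). The ranges of these 4 genes overlapped, so the ranges gave no order among them. Within each library Lpl was above Cd36 on this scale, and below it on the deposited scale. Fabp4 at 38.3 (25.3 to 48.0) and Adipoq at 28.2 (25.1 to 32.4) followed and also overlapped. Pparg stood alone at 11.1 (9.51 to 12.8). Cfd at 0.829, Plin1 at 0.367 and Cidec at 0.199 made up the lowest group, with overlapping ranges, though Cfd was above Cidec within each library. On the deposited scale Cebpb, at 116, was first, Lpl came after Cebpa and Cd36, and Fabp4, at 7.64, lay next to Pparg, at 8.02.

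**Figure D1:**
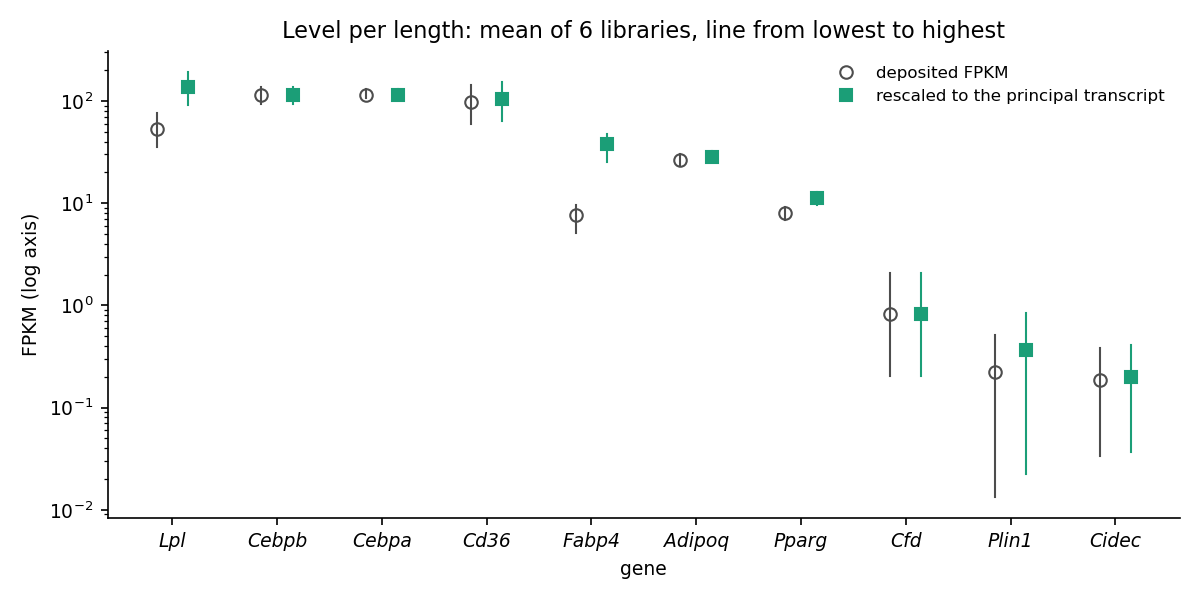
Level of each gene per length, in FPKM on a log axis. Open circles are the mean of 6 libraries as deposited, green squares the mean after rescaling to the principal transcript, and lines run from the lowest to the highest library. Fabp4 moves from 7.64 to 38.3 and Lpl from 53.6 to 136, while Cebpb and Cfd keep their values.

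Control replicate 3 stood apart from the other control libraries. A chi-square statistic of the counts over the tested genes, per degree of freedom, was 8.60 between control replicates 1 and 2. It was 44.2 and 47.1 between each of them and control replicate 3. Among the Ni libraries it was 4.55 between replicates 1 and 3 and 20.2 and 23.7 between each of them and replicate 2. The level in control replicate 3 lay nearer to the Ni mean than to the mean of the other controls for 7 of the 8 tested members, and for 9885 (67.6%) of all 14624 tested genes. The values of the tested members, and the counts for each gene list, are therefore given with and without this library. The labels were taken as given, and the p-values measure the spread among the 3 libraries of each group, which were taken as independent.

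**Figure D2:**
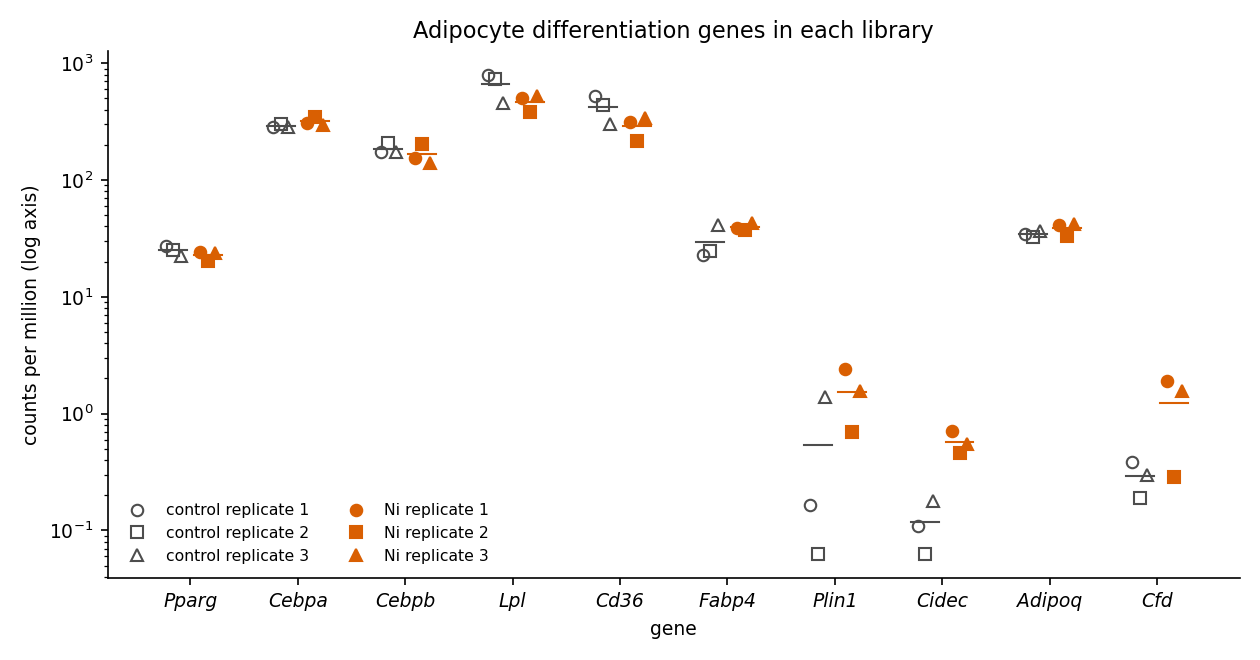
Counts per 1000000 (CPM, log axis) of the 10 genes in each library. Open gray symbols are control, filled orange symbols Ni, the symbol shape gives the replicate number, and short lines are group means. Control replicate 3 (open triangle) lies within the range of the Ni libraries for every gene except Cebpa and Cidec. Only for Cidec are all Ni libraries above all controls. Groups did not overlap, in 1 direction or the other, for 10.7% of genes in the fit with no filter on low counts.

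No difference was resolved for the 3 transcription factors, whose 95% intervals of the log2 fold change lay between -0.47 and 0.36. Pparg encodes PPARγ, the nuclear receptor that is required for the fat cell. In counts per 1000000 of the scaled library (CPM), it was at 27.3, 25.2 and 22.3 in control replicates 1 to 3 and at 24.2, 20.4 and 23.7 CPM in Ni replicates 1 to 3. The highest 2 libraries were control and the lowest was Ni, and the groups overlapped. The log2 fold change was -0.13 ± 0.12 (SE, n = 3 per group, 95% interval -0.40 to 0.14), with an adjusted p of 0.680 by the quasi-likelihood test of edgeR, adjusted after Benjamini and Hochberg, the test behind each fold change here. Cebpa, the C/EBP factor that works with PPARγ to hold the fat cell state and that also drives myeloid genes, was at 284, 303 and 283 CPM in control and 309, 346 and 298 CPM in Ni. Its Ni libraries included the highest 2, while Ni replicate 3 lay below control replicate 2. For Cebpa the log2 fold change was 0.13 ± 0.10 (-0.10 to 0.36, adjusted p = 0.608).

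Cebpb, the early C/EBP factor that responds to hormones and inflammatory signals, was at 175, 206 and 174 CPM in control and 153, 205 and 141 CPM in Ni. Ni replicate 2 lay beside the highest control and the other Ni libraries were the lowest of the 6. For Cebpb the log2 fold change was -0.15 ± 0.14 (-0.47 to 0.17, adjusted p = 0.686), and it was -0.32 without Ni replicate 2 (adjusted p = 0.259). Cebpb is a single exon of 1504 bases on chromosome 2 (167688915 to 167690418, plus strand), and 312 of these bases, 20.7%, also belong to exons of Tmem189 on the other strand. Library preparation did not mark the strand and the strand setting of the counting is not given in the sources used here, so reads in the shared stretch could belong to either gene. Tmem189 was at 111 ± 10.5 CPM (SD, n = 3) in control and 115 ± 3.92 CPM in Ni, a log2 fold change of 0.05 (adjusted p = 0.869). Cebpa shares 51 of 2636 exon bases with Gm45091 on the other strand. With control replicate 3 omitted the log2 fold changes were -0.20, 0.12 and -0.19 for Pparg, Cebpa and Cebpb, with adjusted p of 0.340, 0.475 and 0.483.

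The genes for the uptake and binding of fatty acids held the members with the lowest p. Lpl encodes lipoprotein lipase, which frees fatty acids from circulating triglyceride. It was at 797, 732 and 453 CPM in control and 507, 380 and 522 CPM in Ni. Control replicates 1 and 2 were the highest of the 6, and control replicate 3 lay below Ni replicates 1 and 3. The Ni to control ratio of Lpl was 0.711, a log2 fold change of -0.49 ± 0.21 (-0.98 to -0.01) with an unadjusted p of 0.0463 and an adjusted p of 0.367. Within its principal transcript, 4.11% of the 50-base stretches also occur in transcripts of other genes, so reads there could be assigned elsewhere. The rest of its counted exons was not searched.

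Cd36, the membrane receptor that takes up long-chain fatty acids and oxidized lipoprotein, was at 521, 443 and 301 CPM in control and 317, 217 and 339 CPM in Ni. The 6 libraries stood in the same order as for Lpl, with control replicates 1 and 2 highest and Ni replicate 2 lowest. The Cd36 ratio was 0.690, a log2 fold change of -0.54 ± 0.23 (-1.05 to -0.02) with an unadjusted p of 0.0448 and an adjusted p of 0.367. Fabp4, the fatty acid carrier of the adipocyte cytoplasm that is also present in macrophages and endothelium, was at 22.8, 24.6 and 40.9 CPM in control and 38.6, 37.1 and 43.1 CPM in Ni. Control replicates 1 and 2 were the lowest, and control replicate 3 was the second highest of the 6. The Fabp4 ratio was 1.35, a log2 fold change of 0.43 ± 0.21 (-0.04 to 0.90) with an unadjusted p of 0.0681 and an adjusted p of 0.401.

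Without control replicate 3 these 3 genes passed the adjusted threshold. The log2 fold change was then -0.70 ± 0.12 for Lpl (adjusted p = 0.00246), -0.72 ± 0.18 for Cd36 (adjusted p = 0.0312) and 0.74 ± 0.12 for Fabp4 (adjusted p = 0.00121). In that fit the Ni libraries of Lpl and Cd36 all lay below, and those of Fabp4 all above, the remaining controls. Among all 15044 genes of that fit, 43.1% had groups that did not overlap, in 1 direction or the other. At an adjusted p under 0.05, 8.69% of them were higher in Ni and 6.49% lower. Leaving out any other single library gave no adjusted p under 0.05 for a member and no change of sign. Removing Ni replicate 2 took Lpl and Cd36 to -0.36 each, with adjusted p of 0.458 and 0.433.

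Markers of other cell types also differed between the libraries. Of 21 macrophage markers, all were tested, and 6 were lower in Ni at an unadjusted p under 0.05 (Ptprc, Itgam, Cx3cr1, Tyrobp, Fcer1g and Aif1) while none was higher at that p, beside 5.83% of all tested genes lower and 7.59% higher. With control replicate 3 omitted, 8 of the 21 were lower and 1, Mrc1, was higher at an adjusted p under 0.05 (all genes 6.49% and 8.69%). In the fit to all 6 libraries their median log2 fold change was -0.16, beside -0.01 over all tested genes. The summed FPKM of the list, of which Lyz2 made up 45.5%, ran from 18510 to 22280 in control and from 18806 to 19066 in Ni, and every one of the 21 was above 0. Of 8 endothelial markers, all tested, 1, Pecam1, was lower at an unadjusted p under 0.05 and 0 were higher. The fold change was above 0 for 2 of the 8, and for 1 all Ni libraries lay above the controls. The summed FPKM, of which Pecam1 made up 48.2%, was 11.1 to 15.2 in control and 9.35 to 10.6 in Ni. Kdr and Tek were under 0.5 in every library. Without control replicate 3, Pecam1 was the 1 endothelial marker with an adjusted p under 0.05. The part of these cells in the differences of Lpl, Cd36 and Fabp4 was not tested.

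The lipid droplet members were barely detected. Plin1 encodes perilipin 1, which coats the large droplet of the adipocyte and gates lipolysis. It had 3, 1 and 23 counts in control and 44, 12 and 28 counts in Ni, or 0.164, 0.0630 and 1.38 CPM against 2.39, 0.691 and 1.55 CPM. Control replicate 3 lay above Ni replicate 2, and the libraries differed up to 37.9-fold. For Plin1 the log2 fold change was 1.52 ± 0.86 (-0.42 to 3.50, adjusted p = 0.464), and 3.66 ± 0.81 without control replicate 3 (adjusted p = 0.00791). In both fits Plin1 passed the filter on low counts through its Ni libraries, the controls alone not reaching it, so that its being tested was not independent of its level in Ni. Summed over the group, 84 Ni counts against 27 control counts gave a ratio of 2.94 per effective library size (exact 95% interval 1.88 to 4.71, counting error only).

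Cidec, whose product joins lipid droplets into larger ones, had 2, 1 and 3 counts in control and 13, 8 and 10 counts in Ni. It was the member whose Ni libraries all lay above the controls (exact two-sided permutation p = 0.1, the smallest that 3 against 3 allows). Among the 25876 genes of the fit with no filter, 10.7% had groups that did not overlap, in 1 direction or the other. Its 31 Ni counts against 6 control counts gave a ratio of 4.87 (exact 95% interval 2.00 to 14.3, counting error only). Cidec did not pass the filter. In the fit with no filter its log2 fold change was 2.23 ± 0.94 (adjusted p = 0.208).

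Of the secreted members, Adipoq was well detected and Cfd was not. Adipoq encodes adiponectin, the hormone of fat cells that is also made by a population of marrow stromal cells. It was at 34.8, 32.7 and 36.5 CPM in control and 41.0, 32.9 and 42.0 CPM in Ni. Ni replicates 1 and 3 were highest, and Ni replicate 2 lay among the controls. The log2 fold change of Adipoq was 0.16 ± 0.12 (-0.11 to 0.42, adjusted p = 0.592), and 0.20 ± 0.13 without control replicate 3 (adjusted p = 0.346). Without Ni replicate 2 it was 0.26 ± 0.10, with an unadjusted p of 0.0302 and an adjusted p of 0.275.

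Cfd encodes adipsin, a serine protease of the alternative complement pathway. It had 7, 3 and 5 counts in control and 35, 5 and 28 counts in Ni. Ni replicates 1 and 3 stood above all other libraries, and Ni replicate 2 lay among the controls. The 68 Ni counts against 15 control counts gave a ratio of 4.28 (exact 95% interval 2.42 to 8.06, counting error only). In the fit with no filter the log2 fold change of Cfd was 2.08 ± 0.60 (adjusted p = 0.0168). Exact permutation p-values over the 3 against 3 libraries were 0.2 to 0.4 for the 9 members other than Cidec.

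Counted together, 0 of the 8 tested members passed an adjusted p of 0.05 by edgeR, and so did 0% of the 14624 tested genes. At an unadjusted p under 0.05, 0 members were higher in Ni, where 7.59% of tested genes (1110) were, and 2 members, Lpl and Cd36, were lower, where 5.83% (853) were. No tested member had groups that did not overlap, beside 14.7% of tested genes. By DESeq2, 0 members were called at an adjusted p of 0.05, beside 1.94% of the 13593 genes with an adjusted p, with adjusted p-values missing for Cidec and Cfd. At an unadjusted p under 0.05 in that fit, which kept all 10 members, Fabp4, Cidec and Cfd were higher, beside 4.49% of 25876 genes, and Lpl and Cd36 lower, beside 3.32%. By limma on either FPKM scale, 0 genes passed an adjusted p of 0.05 and 0 members an unadjusted p of 0.05, and with a pseudocount of 1 the latter held 1101 genes higher and 654 lower. Fold changes were above 0 for Cebpa, Fabp4, Adipoq and Plin1 and below 0 for Pparg, Cebpb, Lpl and Cd36. Plin1 passed the filter through its Ni libraries, so this split of signs is not set beside that of all genes.

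With control replicate 3 omitted, Fabp4 and Plin1 were called higher and Lpl and Cd36 lower. Plin1, and also Cidec and Cfd, which that fit left in, passed its filter through their Ni libraries alone, so no count over the tested members is drawn from it. In that fit 8.69% of 15044 tested genes were called higher and 6.49% lower. With no filter on low counts, Lpl, Cd36, Fabp4 and Cfd were called, beside 3.97% of 25876 genes. At an unadjusted p under 0.05 that fit held Fabp4, Plin1, Cidec and Cfd higher, beside 6.83% of genes, and Lpl and Cd36 lower, beside 4.98%. Direction was the same for each of the 8 members in these 2 fits and in the filtered fit to all 6 libraries.

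**Figure D3:**
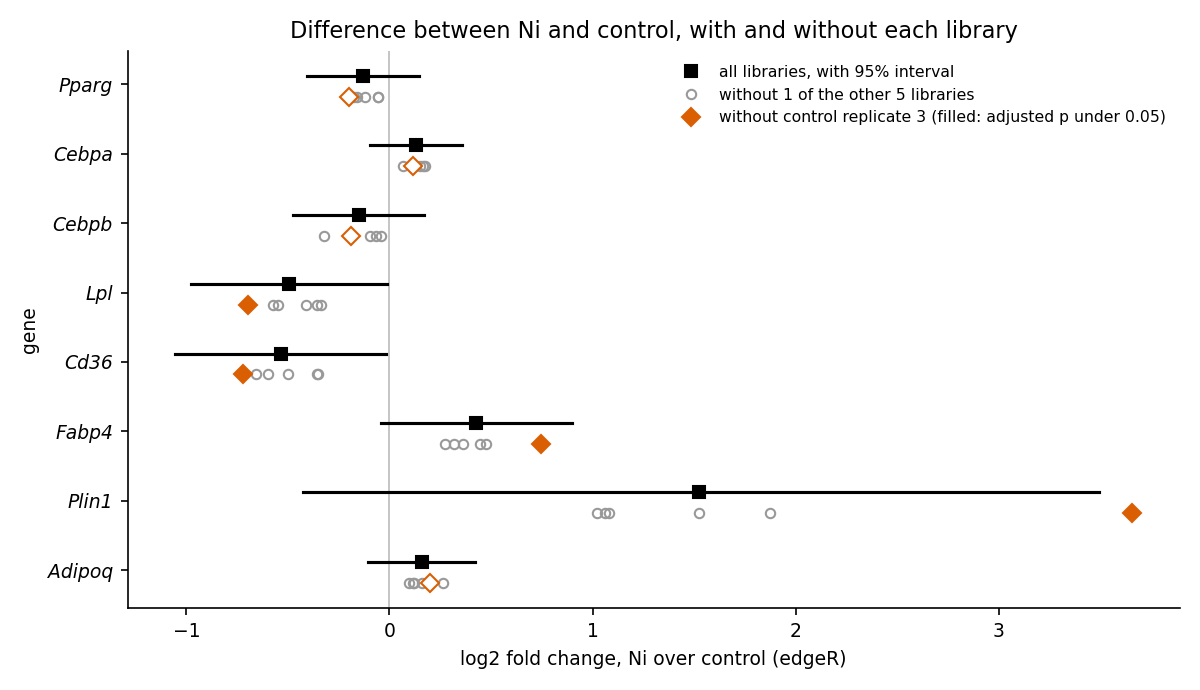
Log2 fold change of Ni over control for the 8 members that passed the filter. Black squares with lines are the values from all 6 libraries with 95% intervals, gray circles the values without 1 of the 5 libraries other than control replicate 3, and diamonds those without control replicate 3, filled where the adjusted p was under 0.05. Lpl, Cd36, Fabp4 and Plin1 are filled, and each gene stays on its side of 0.

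The counts for the genes around the members are to be read against the shares of all tested genes given above, 7.59% (higher) and 5.83% (lower) for an unadjusted p below 0.05 and, without control replicate 3, 8.69% higher and 6.49% lower at an adjusted p under 0.05. The values of the named genes are from all 6 libraries. Of 19 tested adipogenic regulators, 1 had an unadjusted p under 0.05, Klf4, a Krüppel-like factor that acts early in adipogenesis, at 33.8 CPM in control and 51.0 CPM in Ni (log2 fold change 0.59 ± 0.15, adjusted p = 0.262). The most abundant were Cebpd, the partner of Cebpb in the early phase, at a log2 fold change of -0.17 ± 0.14, and Rxra, the partner of PPARγ on DNA, at 0.08 ± 0.10. The median of the list was -0.02, and without control replicate 3 Klf4 was the 1 of 19 called. Of 14 tested regulators that hold back adipogenesis, 3 were higher at an unadjusted p under 0.05, 0 were lower, and the median was 0.30. They were Wnt10b, a Wnt ligand that favors the osteoblast fate (log2 fold change 1.01 ± 0.19), Sox9, a cartilage factor (0.90 ± 0.25), and Ctnnb1, which encodes β-catenin (0.28 ± 0.11), with adjusted p of 0.208, 0.273 and 0.344. Klf2, the other abundant gene of the list, was at 0.18 ± 0.09. Without control replicate 3, 5 of the 14 were called higher and 0 lower. Dlk1, which encodes the preadipocyte factor, had 0 counts in every library.

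Genes of fatty acid handling differed in both directions at an unadjusted p. Among 16 tested genes of uptake and transport, 4 were higher and 2 lower at that p, with a median of 0.06. Those with the largest changes were Vldlr, a receptor for triglyceride-rich lipoprotein, at 2.81 FPKM in control and 6.25 in Ni (log2 fold change 1.15 ± 0.30, adjusted p = 0.288), Fabp3, the heart-type carrier (1.00 ± 0.35, adjusted p = 0.318), and Slc27a3, of the fatty acid transport protein family (0.73 ± 0.20, adjusted p = 0.273). The most abundant were Apoe, which made up 96.6% of the summed FPKM of the list and was at 0.15 ± 0.24, and Lrp1, at 0.28 ± 0.15. With control replicate 3 omitted, 5 of 17 tested were called higher and 2 lower.

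Among 17 tested genes of fatty acid and triglyceride synthesis, 3 were higher and 0 lower, with a median of 0.07. They were Dgat2, which completes triglyceride (log2 fold change 0.69 ± 0.18, adjusted p = 0.269), Me1, which supplies NADPH (0.69 ± 0.17, adjusted p = 0.249), and Lpin1, a phosphatidate phosphatase (0.23 ± 0.09, adjusted p = 0.350). Scd2 and Acly, the most abundant, were at 0.14 ± 0.11 and -0.06 ± 0.11, and without control replicate 3 the calls were 3 higher and 0 lower. Of 14 tested droplet coat and lipolysis genes, 2 were higher and 1 lower, with a median of 0.08. Mgll, the lipase of monoglycerides, was at 0.75 ± 0.20 (adjusted p = 0.275), Cavin1, a caveolar coat gene, at 0.46 ± 0.17 (adjusted p = 0.339), and Lipe, hormone-sensitive lipase, at -0.44 ± 0.13 (adjusted p = 0.289). Lipe was at 4.82 FPKM in control and 3.55 FPKM in Ni, and its Ni libraries all lay below the controls. Plin2, the droplet coat protein found in most cell types, was at 30.8 FPKM in control and 31.8 FPKM in Ni, a log2 fold change of 0.04 ± 0.11. With control replicate 3 left out, 4 of the 14 droplet and lipolysis genes were called higher and 1 lower.

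Among 9 tested adipokines and their receptors, 4 were higher and 0 lower, with a median of 0.67. Rbp4, the retinol carrier, was at 1.03 ± 0.20 (adjusted p = 0.208) and Apln, which encodes apelin, at 0.78 ± 0.22 (adjusted p = 0.293). Adipor1, an adiponectin receptor and among the most abundant of the list, was at 284 CPM in both groups. In the fit without control replicate 3, 5 of the 9 were called higher and 0 lower. Of 12 brown adipocyte genes, 4 were tested and 1, Tmem26, was higher at an unadjusted p under 0.05 (1.35 ± 0.46, adjusted p = 0.310), at 0.0911 FPKM in control and 0.237 FPKM in Ni. Cox7a1 and Ppargc1b were at -0.36 ± 0.49 and 0.35 ± 0.32, and Ucp1, Cox8b and Zic1 had 0 counts in every library. No gene of these 7 lists passed the adjusted threshold. Without control replicate 3 the lists together held 23 genes called higher and 3 called lower, of 94 tested, with 0 of the 4 brown adipocyte genes called.

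**Figure D4:**
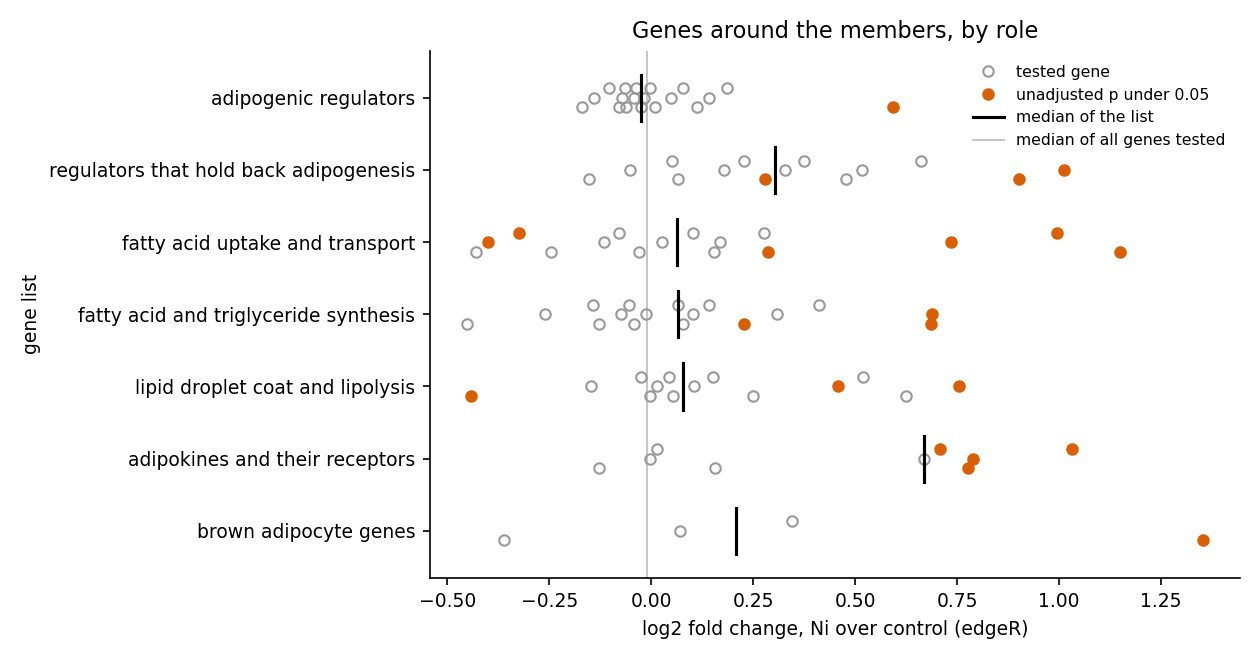
Log2 fold change of Ni over control for each tested gene of the 7 lists around the members. Gray circles are genes with an unadjusted p of 0.05 or more, orange circles those under 0.05, black bars the median of each list, and the gray line the median of all tested genes. The adipokine list has the highest median, 0.67, and the adipogenic regulators lie closest to the gray line at -0.02.

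The libraries were also read for markers of the fat cell itself and of the labelled lineage. Of 11 adipocyte markers, 5 passed the filter. Lipe, given above, was lower at an unadjusted p under 0.05, beside 5.83% of all tested genes. When control replicate 3 was left out, Plin1 and Lipe were the adipocyte markers called. Pck1 had 0 counts in every library, and Lep, Retn, Thrsp and Cidec stayed under 0.5 FPKM in every library. Adipoq alone made up 74.8% of the summed FPKM of the list, which was 32.5 to 34.8 in control and 31.7 to 39.8 in Ni. Of the other defining genes, Plin4, a further perilipin, had 208 to 293 counts per library and Gpd1, which makes glycerol 3-phosphate, had 37 to 57. All 12 osteoblast markers were higher in Ni at an unadjusted p under 0.05, beside 7.59% of all tested genes. Their median log2 fold change was 1.10, and 0 of 12 passed the adjusted threshold. After removal of control replicate 3, 10 of the 12 passed it, all higher, beside 8.69% of all genes higher, with a median of 1.44. Their summed FPKM was 1483, 1535 and 3105 in control and 5757, 3816 and 5863 in Ni. Control replicate 3 was the highest control and Ni replicate 2 the lowest Ni library in that sum. Among the members the same held for Fabp4, Plin1, Cidec and Adipoq.

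General stromal markers were at a summed FPKM of 587 to 738 in control and 753 to 796 in Ni. At an unadjusted p under 0.05, 4 of 12 were higher and 1 was lower (all tested genes 7.59% and 5.83%). With control replicate 3 left out, 7 were higher and 1 lower at an adjusted p under 0.05 (all genes 8.69% and 6.49%). The list of 6 B lymphocyte markers was at 24.4, 29.4 and 9.51 in control and 13.2, 12.9 and 10.3 in Ni, of which Cd79b made up 99.5% and Ms4a1 and Igll1 had 0 counts. The megakaryocyte and platelet list ran from 92.2 to 203 and the neutrophil list from 2.02 to 3.96 over the 6 libraries, with S100a9, Ltf and Retnlg at 0. Of these 3 lists, 0 genes had an unadjusted p under 0.05, and without control replicate 3 Cd79b was called lower and Pf4 higher. The labelled cell type is mesenchymal, and the 21 macrophage genes had a higher summed FPKM than the 12 osteoblast or 12 stromal genes in every library. By share of counts the lists lay closer. The macrophage list held 3.14% to 3.69% of counts and the osteoblast list 0.917% to 2.92%, with 3.17% and 2.92% in Ni replicate 1. The part of any of these cells in the level of a member was not tested.

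**Figure D5:**
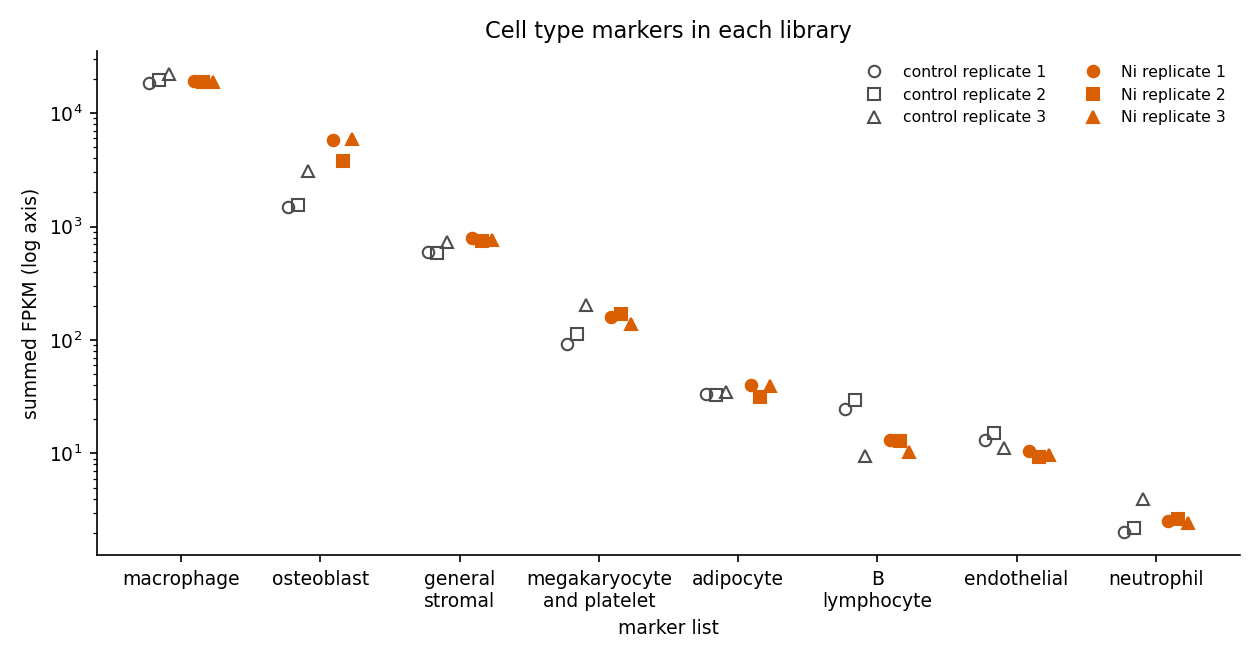
Summed FPKM of 8 marker lists in each library, on a log axis, with open gray symbols for control, filled orange symbols for Ni and the shape giving the replicate number. The macrophage list lies between 18510 and 22280, the osteoblast list lies between 1483 and 3105 in control and between 3816 and 5863 in Ni, and the adipocyte list stays between 31.7 and 39.8.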

How the data were processed

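The authors deposited 1 table of raw read counts per gene and 1 table of FPKM values for the 6 libraries, mapped to GRCm38 per the labels. The aligner, the counting tool and its strand setting are not given in the sources used here. FPKM in the deposited file equalled the counts divided by the listed exon length and a factor of each library. Column names matched the sample labels.

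Raw counts were tested in R 4.3.3 with edgeR 4.0.16 (TMM, filterByExpr, robust quasi-likelihood test, prior count 0.125) on all 6 libraries without covariates, with Benjamini-Hochberg adjustment over 14624 genes, and the method was tested on simulated counts. DESeq2 1.42.0 and limma 3.58.1 on log2(FPKM + 1) and log2(FPKM + 0.1) were alternatives, with other scalings, other filters, a gene-length correction, a replicate block and each library left out in turn. CPM here is counts per 1000000 of the TMM-scaled total over the genes that passed the filter. Exact permutation tests used mean log2 CPM. Totals of 16101033 to 18642504 counts left members under about 1 CPM with few counts, and their intervals cover counting error only. No set test was run.

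All 10 members were named. From each list of related genes the text named up to 3 with the largest change at an unadjusted p under 0.05 and up to 2 with the highest mean FPKM. Marker lists were given by counts and sums. The values of 2 listed genes are not reported here. Some genes, among them Lipe, are in 2 lists. Members and lists were chosen with earlier results of these data known. Dexamethasone, ascorbic acid and β-glycerophosphate amounts are those of the labels, and the paper's methods give less dexamethasone. Of the tables' genes, 53499 had the same start and end in GENCODE M21, from which exon lengths and overlaps were computed. The principal transcript was the one marked as such there. Promoter windows came from RefSeq (GRCm38.p6).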

Additional observations from a re-analysis of the deposited data

How the results depend on the processing

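Of the members, 0 passed an adjusted p of 0.05 in the fit to all 6 libraries and 4 did with no filter on low counts (3.97% of all genes). Leaving out 1 library other than control replicate 3 gave 0. No count of members is drawn from the fit without control replicate 3, whose calls are named above. At an unadjusted p under 0.05 there were 2 of 8 tested members (all genes: 1110 higher and 853 lower of 14624). By DESeq2 there were 5 of 10 (1161 and 859 of 25876), and with no filter 6 of 10 (1768 and 1289 of 25876). Upper-quartile scaling gave 1, and limma with either pseudocount (1 or 0.1) gave 0. Leaving out 1 library other than control replicate 3 gave 0 to 4, where 8 to 10 were tested. The 4, without Ni replicate 2, were Cebpb, Cidec, Adipoq and Cfd (all genes: 1249 higher and 1197 lower of 15004). Cidec and Cfd were tested there through their Ni libraries, so nothing is drawn from this count. Cidec and Cfd, and Plin1 both with all 6 libraries and without control replicate 3, entered filtered fits through their Ni libraries. Members whose groups did not overlap numbered 0 with all 6 libraries (14.7% of all tested genes), against 1 (Cidec) with no filter (10.7%). There was 1 (Cebpa) with library totals (14.9%), upper-quartile scaling (14.5%) or the gene-length trend removed (14.9%). Leaving out 1 library other than control replicate 3 gave 0 to 5. The 5, without Ni replicate 2, were Cebpb, Plin1, Cidec, Adipoq and Cfd (35.1% of all tested genes). Plin1, Cidec and Cfd entered that fit through their Ni libraries, so nothing is drawn from this count either. Without control replicate 3, 43.1% of all tested genes were without overlap. No member changed sign. Over all settings the log2 fold change ran from -0.70 to -0.34 for Lpl (adjusted p 0.00246 to 0.845), from -0.72 to -0.35 for Cd36 (0.00227 to 0.830), from 0.28 to 0.74 for Fabp4 (0.00121 to 0.851) and from 0.26 to 3.66 for Plin1 (0.00791 to 0.864). The cause of these differences was not tested, and the fits with 1 library left out or no filter tested other numbers of genes.

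With a replicate block no member passed an adjusted p of 0.05. The log2 fold change under the replicate block was 0.47 for Fabp4 (unadjusted p = 0.00707, adjusted p = 0.110) and 1.81 for Plin1 (unadjusted p = 0.0352, adjusted p = 0.225), and -0.47 for Lpl and -0.53 for Cd36 (adjusted p = 0.299 and 0.274), so 2 members again had an unadjusted p under 0.05, though not the same 2. Over all genes the block called 315, where the fit without it called 0. Deviations of same-numbered libraries correlated at 0.01, 0.26 and 0.14 for replicates 1 to 3, and the labels do not say that a number marks a shared culture, so the numbers were not taken as pairs.

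Depth limits Plin1, Cidec and Cfd, whose libraries held as few as 1 to 3 counts. The size of a fold change for these 3 depends on single counts in control libraries. For Fabp4 and Lpl the level per length depends on the transcript assumed. The 3 replicates per group cannot give an exact permutation p below 0.1.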
